A study of Drosophila melanogaster with 23 samples.

Results

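Pooled Hi-C maps of HP1-rescue embryos and HP1-KD embryos of Drosophila melanogaster were compared to measure what a hairpin-resistant copy of heterochromatin protein 1 (HP1) restored of the contact patterns that differ between HP1-KD and control embryos. The members were the 3 HP1-rescue and the 5 HP1-KD libraries, 8 of the 23 samples of the series, chosen by their genotype labels. The 7 control libraries served as the reference for what was restored, and the 2 libraries of embryos expressing histone H3.3 with lysine 9 replaced by methionine (H3K9M) are given only beside the checks of genotype. All embryos were collected for 1 h, aged for 2 h at 25 °C and sorted by hand at stage 5, the time of zygotic genome activation (ZGA). Control mothers came from Bloomington stock #36303, and HP1-KD mothers carried an HP1 short hairpin from stock #33400. HP1-rescue mothers carried the same knockdown and pUASP::Flag-HA-HP1, a tagged HP1 that the hairpin does not target. Hairpin and transgene were driven in the female germ line by the Gal4 line #7063, and the same driver line is given for the control and H3K9M groups. The females were mated to siblings, so the HP1-KD and HP1-rescue embryos measured are the offspring of depleted mothers. The knockdown is partial by design, because embryos with no maternal HP1 stop before ZGA. The characteristics field of the HP1-KD and rescue libraries still reads "WT embryo at stage 5", and the titles and genotype field were taken in its place. The labels do not say whether the libraries of a group came from separate crosses.

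Each group has 1 pooled map of 10-kb bins, so no test between groups was possible and every difference is given with its values on the 5 long arms (2L, 2R, 3L, 3R and X), which share embryos and libraries and are not replicates. The maps held 296391743 contacts on these arms in control, 184376858 in the knockdown and 74623956 in the rescue, so the rescue map was the shallowest of the 3. Counting intervals quoted are at 95% and cover counting error only. A scaled contact is the mean balanced contact per bin pair, set to a total of 100000000 contacts. "Restored" is the share of the distance from HP1-KD to control that the rescue value covered, 0% at the HP1-KD value and 100% at the control value. Because the HP1-KD map stands on both sides of that share, it is a description and not a measure with an error.

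HP1 binds methylated lysine 9 of histone H3 through its chromodomain and dimerizes through its chromoshadow domain, and it coats the repeat-rich DNA around centromeres and, more sparsely, sites along the arms. In the early fly embryo, chromosomes lie in the Rabl configuration, with centromeres gathered at one pole of the nucleus and the arms stretching side by side towards the other. Hi-C ligates DNA ends that lie close together in fixed nuclei, so the count for a bin pair rises with how often the loci meet.

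The genotypes were checked first, since a contact map holds no level of HP1 RNA or protein. The loci used for these checks were picked after their values had been seen. As background, TRiP hairpin vectors carry a vermilion (v) marker and are commonly placed at a landing site on 3L, and pUASP vectors carry a white (w) marker and the terminator of fs(1)K10. Reads from such a transgene map to the native copies of these genes and appear as contacts between distant loci. Contacts between v (X:10920001-10930000, dm6) and the 3L bin 11060001-11070000, which overlaps SuUR, a gene for a suppressor of under-replication, numbered 1290 in HP1-KD and 611 in HP1-rescue embryos, against 2 in control and 0 in H3K9M. As a share of all contacts of the v bin this was 2.85% in HP1-KD (2.70 to 3.01) and 2.85% in HP1-rescue (2.63 to 3.08). Both knockdown genotypes thus carried this signal, and by this share they did not differ beyond counting error. The counts were not compared per contact of the whole map. Between the yellow (y) locus on X and the same 3L bin there were 379 contacts in HP1-KD and 156 in HP1-rescue, against 3136 in control, whose stock carries a y-marked landing site, and 11 in H3K9M.

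The HP1 gene itself, Su(var)2-5 (2L:8209626-8211122, on the minus strand), met the vector parts w and fs(1)K10 with more than 1 contact in the rescue map only, of the 4 maps. Its 2 bins (2L:8200001-8220000, which hold further genes) had 108 contacts with the w bin in HP1-rescue, against 1 in control, 1 in HP1-KD and 0 in H3K9M embryos. With the fs(1)K10 bin there were 83 in HP1-rescue, 1 in control, 1 in HP1-KD and 0 in H3K9M. Among 15449 bins more than 2 Mb away or on another chromosome, these were the bins ranked 1 and 2 by contact with Su(var)2-5 in the rescue map. A 2L bin at 1580001-1590000, over haf and nis, ranked 4 with 40 contacts, against 0 in control, 1 in HP1-KD and 1 in H3K9M. That bin met w with 157 contacts in HP1-rescue, 188 in H3K9M, 2 in control and 0 in HP1-KD. By their labels, HP1-rescue and H3K9M are the 2 genotypes made with a pUASP construct. The contacts of Su(var)2-5 with w made up 0.205% of its contacts (Wilson interval 0.170 to 0.247). Below is the native promoter window of Su(var)2-5 from RefSeq (dm6, 2L:8211073-8211372, minus strand, 250 bases before to 50 after the start), shown because it belongs to the copy that the hairpin silences and is not the promoter that drives the rescue copy. Capitals mark CGATA and GAGAG on either strand, the core letters known for the boundary factor BEAF-32 and for GAGA factor. CAGGTA, the core letters known for the genome activator Zelda, was searched too.
Su(var)2-5: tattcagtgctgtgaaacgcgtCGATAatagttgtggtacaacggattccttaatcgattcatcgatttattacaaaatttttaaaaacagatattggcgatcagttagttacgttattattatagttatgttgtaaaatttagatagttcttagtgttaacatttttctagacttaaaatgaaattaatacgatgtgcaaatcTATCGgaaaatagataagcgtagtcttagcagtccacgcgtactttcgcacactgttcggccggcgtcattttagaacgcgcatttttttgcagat
The window held CGATA 2 times and neither GAGAG nor CAGGTA. Of 13948 promoter windows of this length, 47.3% held CGATA, 29.7% GAGAG and 6.24% CAGGTA, so these matches are common letters and say nothing of binding.

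HP1-KD and HP1-rescue embryos also shared an inversion on 2L, which the study's legends name. Its breaks were placed at 7.24 and 12.35 Mb in each of the 2 maps separately, around a segment of 5.11 Mb with 688 protein-coding genes, Su(var)2-5 among them. The first break fell in bins over Ndae1, a sodium-driven anion exchanger, and CG43800, and the second in bins over CG43813, bru2, an RNA-binding protein gene of the Bruno family, and CG17010. In 50-kb squares at the junctions, the contact above that given by distance was 13.8% of the contact of adjoining DNA in HP1-KD (13.3 to 14.3, 3017 contacts) and 8.16% in HP1-rescue (7.52 to 8.83, 612 contacts). It was -0.05% in control (66 contacts) and -0.17% in H3K9M (8 contacts). The 2 intervals did not overlap, so junction contact was lower in the rescue map by more than counting error. Without balancing the values were 11.7% in HP1-KD and 5.78% in HP1-rescue. In simulated maps of 2352 bins, made from unbalanced contacts of the control map, this measure returned 7.69 for a true 10%. It thus understated the share of inverted chromosomes there. Balanced maps were not simulated, so this does not settle how the 13.8% and 8.16% relate to the true shares.

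**Figure D1:**
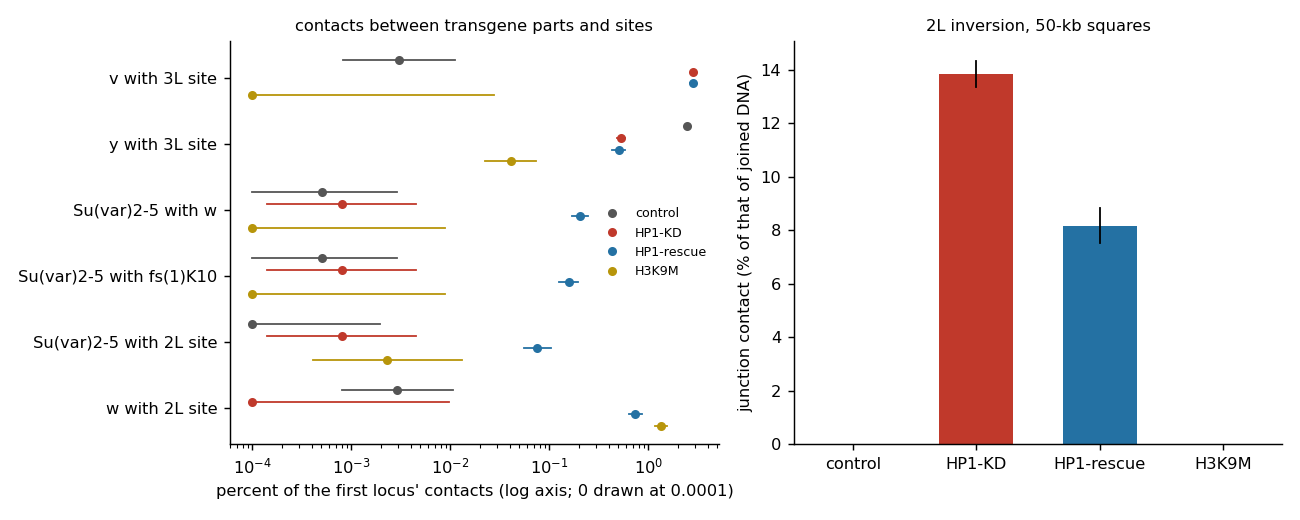
Left, contacts of a marker or HP1 locus with a vector part or insertion site in the 4 pooled embryo maps, as percent of the first locus' contacts on a log axis, with 95% Wilson intervals and zeros drawn at 0.0001. Right, contact at the 2L inversion junctions in 50-kb squares as percent of that of adjoining DNA, with 95% counting intervals. The Su(var)2-5 points of HP1-rescue, from 0.0758 to 0.205%, lie apart from the other maps, and the bars stand at 13.8% in HP1-KD and 8.16% in HP1-rescue.

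The short-range contacts set the scale of what follows. Contacts within a single 10-kb bin made up 24.3% of the arm contacts in control, 20.9% in the knockdown and 31.6% in the rescue, and contacts with the next bin 19.99%, 15.9% and 16.4%. The excess of the rescue map over HP1-KD thus lay mostly within single bins. Together, contacts under 20 kb took 44.3%, 36.8% and 48.0% of the maps. Leaving them out of the total raised every log2 ratio of scaled contact of rescue to HP1-KD by the same 0.22 and lowered every such ratio of HP1-KD to control by 0.14. The main values are given in both versions. A value given once has the short contacts kept, except where the measure does not depend on the total.

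The sharing of contacts within and between chromosomes reversed with that choice. With the short contacts kept, the between-chromosome share was 5.78% in control, 5.01% in the knockdown and 4.74% in the rescue, so the rescue lay further from control than HP1-KD did. It was lower in HP1-rescue than in HP1-KD on each of the 5 arms, by 0.276 to 0.749 percentage points. With the short contacts left out, the shares were 9.68%, 7.51% and 8.31%, and the rescue was higher than HP1-KD on every arm, by 1.11 to 1.52 percentage points, with 36.6% restored. The within-arm share mirrored this, at 91.4%, 92.3% and 92.9% with short contacts kept and at 85.7%, 88.5% and 87.5% without them. In whole contacts without the short ones, the between-chromosome share was 7.91% in HP1-rescue (7.91 to 7.92) and 7.16% in HP1-KD (7.15 to 7.16), an interval that covers counting only.

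Within arms, HP1-rescue embryos had fewer contacts than HP1-KD embryos at every class from 200 kb to the arm ends, under both totals. At 1 to 2 Mb the scaled contact was 2.29 in control, 5.44 in the knockdown and 3.44 in the rescue, a log2 ratio of rescue to HP1-KD of -0.66, or -0.44 with short contacts left out. On this class 52.8% was restored with short contacts kept and 39.9% without, and the 5 arms lay between 51.8% and 53.7% in the first case. At 0.5 to 1 Mb the ratio was -0.60, with 50.7% restored, or -0.38 and 36.8% with short contacts left out. The rescue value stood between HP1-KD and control at both classes, on each arm with short contacts kept.

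The return was fuller at longer distances. At 5 to 10 Mb the scaled contact was 0.394 in control, 0.508 in the knockdown and 0.399 in the rescue, so 95.4% was restored with short contacts kept and 58.9% without. At 10 Mb and over it was 0.0927, 0.119 and 0.0930, with 98.6% and 63.3% restored. The arms differed widely here. With short contacts kept, they ran from 74.1% on 2L to 121.6% on X at 5 to 10 Mb. At 10 Mb and over they ran from 76.8% on 2L to 136.4% on X. With short contacts left out, they ran from 43.0% on 3R to 95.3% on X at 5 to 10 Mb. At 10 Mb and over they then ran from 43.6% on 2L to 119% on X. Arm 2L carries the inversion, whose breaks lie 5.11 Mb apart, and its part in the 2L values was not tested. Below 100 kb the rescue value was higher than that of HP1-KD as a class, by a log2 ratio of 0.05 at 20 to 50 kb and 0.02 at 50 to 100 kb, or 0.27 and 0.24 with short contacts left out. With short contacts kept, the ratio already fell below 0 within the second class, at -0.013 for bins 0.08 Mb apart and -0.033 for bins 0.09 Mb apart. Without balancing the ratio at 50 to 100 kb turned to -0.06. At 20 to 50 kb the scaled contact was 482 in control, 373 in the knockdown and 387 in the rescue with short contacts kept, and only 14.5% was restored, against 53.2% when they were left out. For the class of 100 to 200 kb the ratio of rescue to HP1-KD changed sign with the total, from -0.14 to 0.08.

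The distance at which rescue and HP1-KD differed most was 1.84 Mb, where the log2 ratio was -0.68 (arms from -0.80 to -0.62) and, with short contacts left out, -0.46 (arms from -0.58 to -0.40). The scaling exponent, the slope of log contact against log distance, has no dependence on the total. From 100 kb to 1 Mb it was -1.51 in control, -1.03 in the knockdown and -1.22 in the rescue, so the decay became steeper in the rescue by 0.175 to 0.211 on the 5 arms and 40.1% of the difference was restored, with arms from 38.4% to 41.7%. From 1 to 10 Mb, where HP1-KD decays more steeply than control, the exponents were -1.12, -1.50 and -1.37 and 34.3% was restored.

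**Figure D2:**
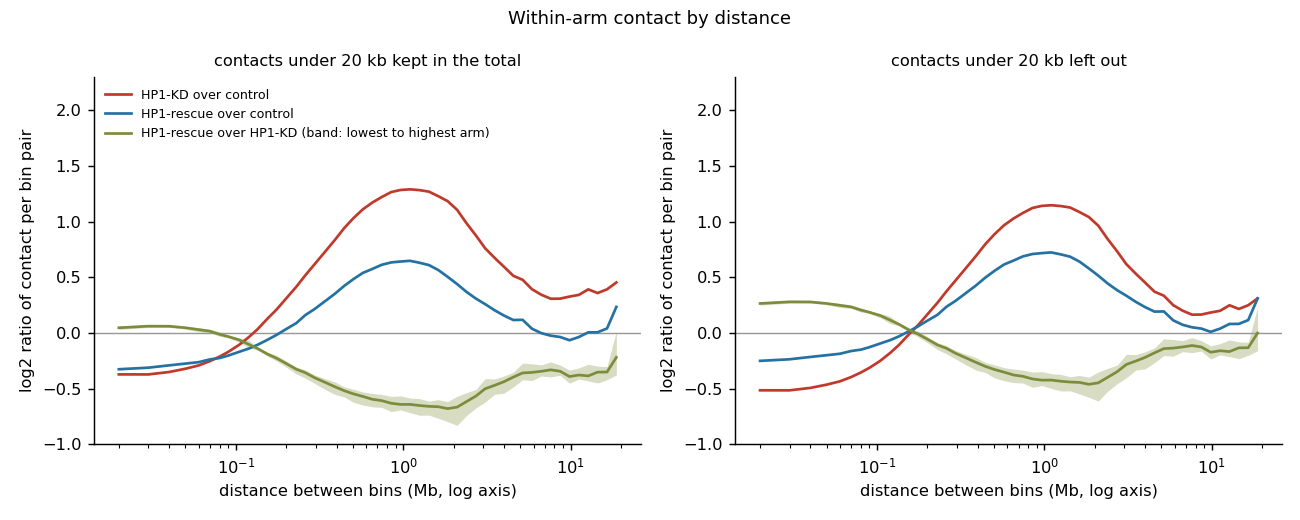
Log2 ratio of within-arm contact per bin pair against the distance between bins in Mb (log axis), with contacts under 20 kb kept in the total (left) or left out (right), for HP1-KD over control, HP1-rescue over control and HP1-rescue over HP1-KD (band, lowest to highest arm). The green curve is lowest at 1.84 Mb, at -0.68 on the left and -0.46 on the right.

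Pericentromeric regions were defined by repeat content, as the centromere-facing stretch of each arm in which repeats fill at least 30% of the DNA, and held 1544 of the 13159 used bins. Contact of pericentromeric regions across arms was higher in the rescue than in HP1-KD, and the share restored varied with the total. The scaled contact was 1.15 in control, 0.895 in the knockdown and 1.00 in the rescue, a log2 ratio of rescue to HP1-KD of 0.16 with 43.4% restored. With short contacts left out it was 1.89, 1.33 and 1.72, a ratio of 0.38 with 74.0% restored. Scaled to the contacts between chromosomes only, the values were 18.4, 16.1 and 19.0, so the rescue lay above control, with 123% restored. The 3 values rested on 1364520, 604370 and 301061 contacts.

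The arms were not alike. With short contacts kept, the ratio was 0.20 for 2R, 0.18 for 3L, 0.14 for 3R and 0.09 for 2L, and -0.02 for X, whose pericentromeric region in the assembly is the shortest. Without the short contacts all 5 arms were higher in HP1-rescue, by 0.20 to 0.42. Of the 10 pairs of arms, 8 were higher in rescue with short contacts kept and 9 without. The pair of 2R with 3L had the highest ratio, with scaled contacts of 0.854 in control, 0.658 in the knockdown and 0.807 in the rescue (log2 0.30). The pair of 3L with X had the lowest, with 0.274, 0.311 and 0.265 (log2 -0.23), and rested on 2445 rescue contacts.

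Contact between pericentromeric regions and the arms of other chromosomes or of the opposite arm was lower in the rescue. The scaled contact was 0.0594 in control, 0.0751 in the knockdown and 0.0595 in the rescue, a log2 ratio of -0.34 that was below 0 on all 5 arms (-0.44 to -0.16), with 99.3% restored. With short contacts left out the values were 0.0971, 0.111 and 0.102, a ratio of -0.12 with 60.6% restored, and X turned to 0.06. Contact of a pericentromeric region with its own arm was 0.192, 0.347 and 0.221, a ratio of -0.65 (arms from -0.82 to -0.47), or -0.43 with short contacts left out. This was the class with the lowest ratio of the 4. Within a single pericentromeric region the scaled contact was 24.8 in control, 25.4 in the knockdown and 26.2 in the rescue, a ratio of 0.05. With short contacts left out it was 40.5, 37.6 and 45.2, a ratio of 0.27. The rescue thus lay above both control and HP1-KD under both totals.

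**Figure D3:**
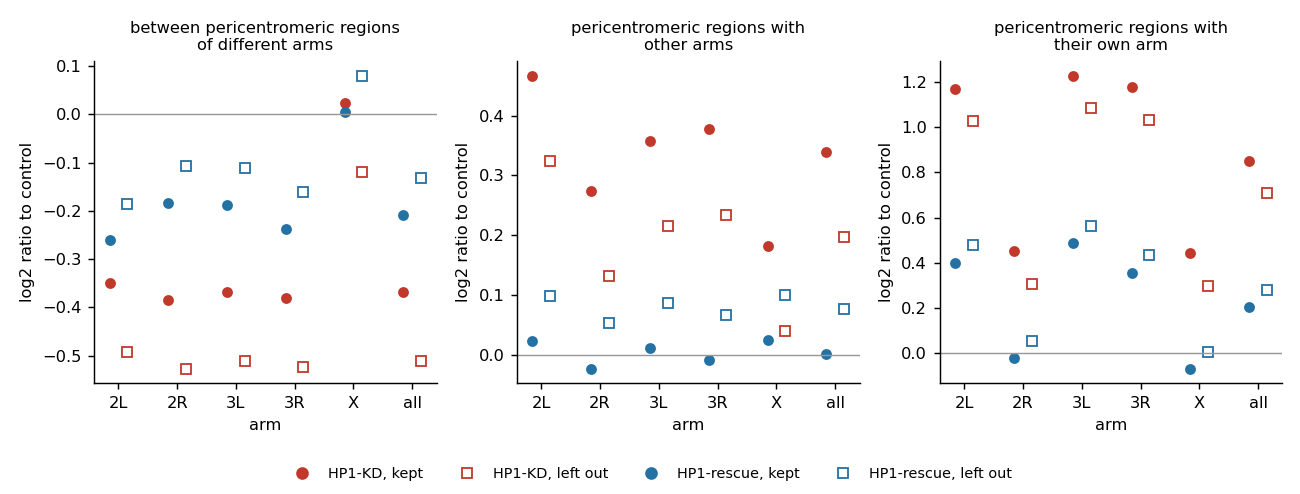
Log2 ratio to control of scaled contact by arm and over all arms, for contact between pericentromeric regions of different arms (left), pericentromeric regions with other arms (middle) and with their own arm (right), in HP1-KD (red) and HP1-rescue (blue), with contacts under 20 kb kept (filled circles) or left out (open squares). In the left and right panels each rescue point lies nearer to 0 than the HP1-KD point of the same arm and total, and in the middle panel this holds except for X with short contacts left out.

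Genes that live in heterochromatin were read from a list of 14, of which 13 lay in these regions and tsh did not. Their measure was the contact of the 50 kb around the gene with pericentromeric bins of other arms. All 13 were lower in HP1-KD than in control, and 9 were higher in HP1-rescue than in HP1-KD, or 12 with short contacts left out. Of 311 neighbourhoods of 50 kb that tile the pericentromeric regions, 93.2% were lower in HP1-KD than in control (96.5% with short contacts left out) and 82.3% were higher in HP1-rescue than in HP1-KD (94.9% with short contacts left out). The median log2 ratio of rescue to HP1-KD was 0.10 over the 13 genes and 0.16 over the neighbourhoods. The gene with the highest ratio was Snap25 on 3L, a synaptic membrane fusion protein, with 0.890 in control, 0.688 in the knockdown and 0.881 in the rescue (log2 0.36, or 0.58 with short contacts left out). It was followed by nrm, a cell adhesion gene, at 0.31, and by AGO3, an Argonaute protein of the piRNA pathway, with 0.917, 0.652 and 0.784 (log2 0.27). The helicase gene Dbp80 was at 0.26 and concertina (cta), a G protein subunit of gastrulation, at 0.25.

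Other genes of the list had lower ratios. light (lt), needed for vesicle transport and eye colour, had 2.14 in control, 1.63 in the knockdown and 1.60 in the rescue (log2 -0.03), and the ribosomal protein gene RpL15 had 1.34, 1.13 and 1.02 (log2 -0.15). Both were above 0 with short contacts left out. The only gene lower in rescue than in HP1-KD under both totals was su(f) on X, a subunit of the mRNA 3' end processing machinery, with 0.273, 0.164 and 0.119 (log2 -0.46 and -0.24), on 344 rescue contacts. The promoter window of Snap25 (RefSeq, dm6, 3L:24073930-24074229, plus strand) is shown as that of the listed gene with the highest ratio, with the same letters in capitals.
Snap25: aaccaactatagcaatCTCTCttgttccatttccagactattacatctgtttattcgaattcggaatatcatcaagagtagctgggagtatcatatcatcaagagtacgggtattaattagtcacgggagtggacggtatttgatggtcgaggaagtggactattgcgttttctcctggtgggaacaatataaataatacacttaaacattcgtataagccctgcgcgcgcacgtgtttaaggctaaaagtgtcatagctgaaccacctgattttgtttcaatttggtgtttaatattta
It held GAGAG 1 time, on the strand opposite to the one printed, and no CGATA or CAGGTA.

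The arms were then read in 116 windows of 1 Mb. A window was called where its log2 ratio of rescue to HP1-KD was 0.2 or more in size. For contact with pericentromeric bins of other arms, 90 windows were lower in HP1-rescue (77.6%) and 1 was higher (0.862%). With short contacts left out, 61 were lower (52.6%) and 12 higher (10.3%). The median log2 ratio was -0.44 with short contacts kept and -0.22 without, and 105 and 87 windows were below 0. The rescue value lay between HP1-KD and control in 65 windows, past control in 41 and past HP1-KD in 10, or 61, 25 and 30 without the short contacts.

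The difference was not even along the arms. The 10 windows within 2 Mb of a pericentromeric border had a median ratio of -0.19, the 15 at 2 to 5 Mb -0.55, the 25 at 5 to 10 Mb -0.51, the 25 at 10 to 15 Mb -0.40 and the 41 farther away -0.28. In the same order, the median ratios of HP1-KD to control were 0.18, 0.65, 0.55, 0.52 and 0.28. Those of rescue to control were 0.007, 0.13, 0.06, 0.08 and 0.005. Leaving out the short contacts moves all 5 medians of rescue to HP1-KD by the same amount, to 0.02, -0.33, -0.30, -0.18 and -0.06, so only the nearest class turned above 0. By arm the medians of rescue to HP1-KD were -0.52 on 2L, -0.50 on 3R, -0.40 on 3L, -0.39 on 2R and -0.28 on X. All 22 windows of 2L were below 0, and 18 of the 23 of X. With short contacts left out, 21 windows of 2L and 14 of X were below 0, and the medians ran from -0.30 on 2L to -0.06 on X. The medians of HP1-KD to control were 0.57 on 2L, 0.57 on 3R, 0.36 on 3L, 0.46 on 2R and 0.29 on X.

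The window with the lowest ratio, 2L:17000001-18000000 with 61 protein-coding genes, had scaled pericentromeric contacts of 0.0448 in control, 0.104 in the knockdown and 0.0557 in the rescue (log2 -0.90, counting interval -0.96 to -0.85). It was also the window with the highest ratio of HP1-KD to control of all 116, at 1.22. The window 3L:16000001-17000000, with 179 genes, had 0.0484, 0.0677 and 0.0372 (log2 -0.86), and 2R:14000001-15000000 was at -0.83. In both of these the rescue value lay below control. The highest ratios were at X:13000001-14000000, with 0.0198, 0.0244 and 0.0303 (log2 0.31, 0.21 to 0.41), at X:6000001-7000000 (0.19) and at 2R:20000001-21000000 (0.14). In maps without balancing all 3 were below 0, at -0.40, -0.15 and -0.27.

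Contact within an arm at 0.5 to 2 Mb was lower in HP1-rescue than in HP1-KD in every window. All 116 windows were lower in HP1-rescue by 0.2 or more (100%), or 111 with short contacts left out (95.7%), and 0 were higher (0%). The log2 ratios ran from -0.89 to -0.29 with a median of -0.67, or from -0.67 to -0.07 with a median of -0.45. The rescue value lay between HP1-KD and control in 116 of 116 windows under both totals.

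The 3 lowest ratios were at 2 arm tips and beside a pericentromeric border. The lowest was at the tip of 3L (1-1000000), with scaled contacts of 2.46 in control, 7.67 in the knockdown and 4.14 in the rescue (log2 -0.89). The tip of 2L (1-1000000) had 2.88, 8.04 and 4.48 (log2 -0.84), and 3R:4000001-5000000, beside the pericentromeric border, was also at -0.84. The smallest falls were at 3R:26000001-27000000, with 5.23, 8.26 and 6.75 (log2 -0.29), 2L:17000001-18000000, with 5.01, 8.49 and 6.90 (log2 -0.30), and 3R:27000001-28000000 (-0.35). In these 3 windows HP1-KD was 0.66 to 0.76 above control on the log2 scale, against a median of 1.28 over all windows. The 2L window is the same that had the lowest ratio for pericentromeric contact. The 2L windows that hold the inversion breaks, at 7000001-8000000 and 12000001-13000000, had ratios of -0.68 and -0.52, inside the range of the other windows.

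**Figure D4:**
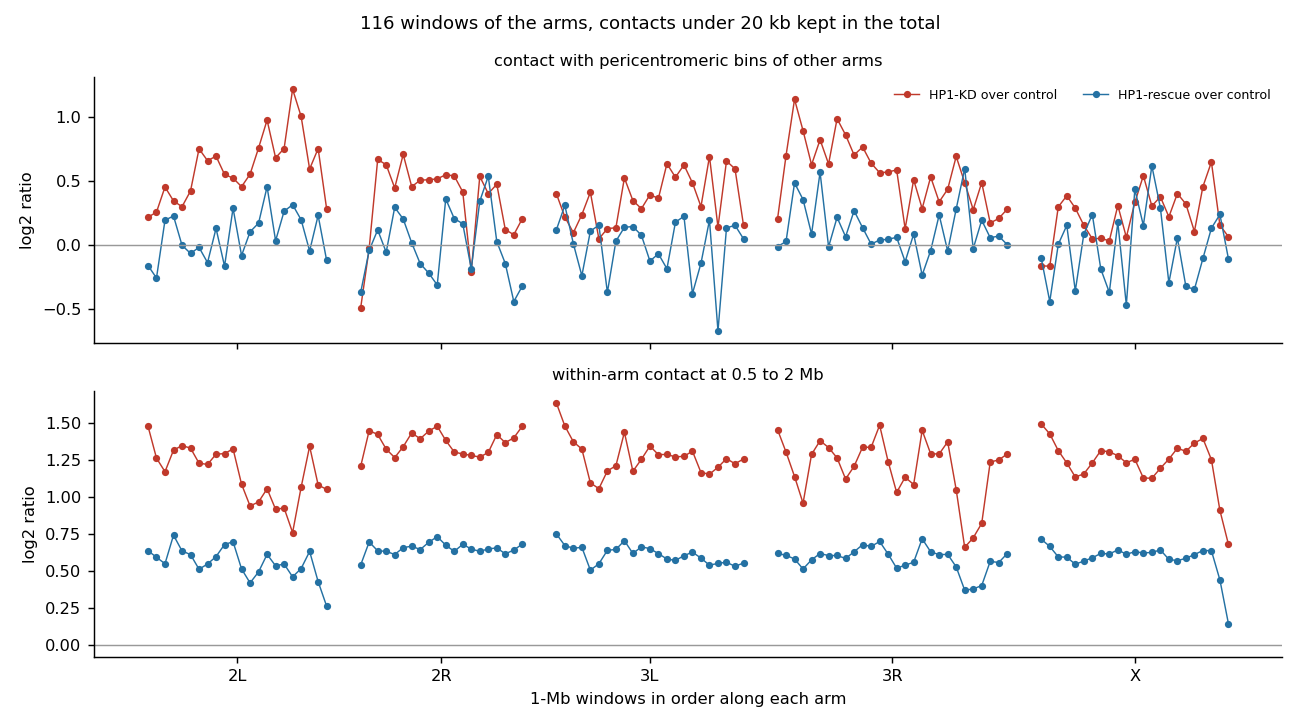
Log2 ratio to control in 1-Mb windows in order along each arm, for contact with pericentromeric bins of other arms (top) and within-arm contact at 0.5 to 2 Mb (bottom), in HP1-KD (red) and HP1-rescue (blue), with contacts under 20 kb kept in the total. In the bottom panel the rescue line lies below the HP1-KD line and above 0 in all 116 windows, and in the top panel it lies below the HP1-KD line in 105.

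Genes for heterochromatin proteins were read by their windows, from a list of 13. The window of Su(var)2-5 (2L:8000001-9000000) had pericentromeric contacts of 0.0285 in control, 0.0461 in the knockdown and 0.0312 in the rescue (log2 -0.56) and within-arm contacts of 2.59, 6.34 and 3.92 (log2 -0.69). The windows of 8 further listed genes off 2R had within-arm ratios from -0.78 (G9a, an H3K9 methyltransferase) to -0.58 (Su(var)3-7, an HP1 partner), around the median of -0.67 over all windows. For pericentromeric contact they ran from -0.63 at Su(var)3-9, the main H3K9 methyltransferase of pericentromeric chromatin, to 0.06 at G9a near the tip of X. The relatives HP1b and HP1c were at -0.13 and -0.58, HP6 at -0.30, the piRNA effector piwi at -0.23 and Hmr, a hybrid incompatibility gene whose protein binds HP1, at -0.53. With short contacts left out, HP1b turned to 0.09 and G9a stood at 0.28. HP1c was then at -0.36, HP6 at -0.08, piwi at -0.02 and Hmr at -0.31. The 4 listed genes on 2R lie in 3 windows, whose ratios ran from -0.83 to -0.25 for pericentromeric contact and from -0.80 to -0.61 within the arm.

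TAD insulation, the dip in contacts across a boundary between topologically associating domains, was read as a depth on the log2 scale at 739 boundaries called in the control map. The depth is a ratio within a map and does not depend on the total. Its mean was 0.766 in control, 0.405 in the knockdown and 0.622 in the rescue, so boundaries were deeper in the rescue by 0.217 on average, with arms from 0.211 to 0.228, and 60.2% was restored. A depth higher in rescue by 0.2 or more was found at 390 boundaries (52.8%) and a depth lower by as much at 16 (2.17%). In all, 642 boundaries were deeper in HP1-rescue than in HP1-KD, and 635 remained shallower than in control. Picking the boundaries in the control map favours depth in control, which bears on that last count and on the share restored.

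Among boundaries with a control depth of 0.4 or more, the share restored differed little with the strength of the boundary. Among 246 boundaries with a control depth of 1.0 or more, the means were 1.40 in control, 0.754 in the knockdown and 1.16 in the rescue, with 62.2% restored. It was 62.2% for the 148 boundaries at 0.7 to 1.0 and 59.4% for the 146 at 0.4 to 0.7. The 199 boundaries under 0.4 had means of 0.067, 0.022 and 0.029, too near to 0 for a share.

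Of the 5 boundaries with the highest rise, 4 lay in the proximal part of X and 1 on 2L, and they were the highest both among the 396 boundaries of 2L, 3L, 3R and X with a control depth of 0.5 or more and among all 739. The one on 2L (19160001-19170000) lies in brat, which encodes a translational repressor of the TRIM-NHL family, and its depth was 1.49 in control, 0.684 in the knockdown and 1.52 in the rescue. The difference of 0.84 between rescue and HP1-KD was 0.85 without balancing. The 4 on X were at 22230001-22240000 (CG46519 and CG46520), 21790001-21800000 (lncRNA:flam, the flamenco piRNA cluster), 22440001-22450000 (CG14621, CG14615 and tilB) and 21620001-21630000 (CG32819, CG32500 and DIP1). Their rises were 1.49, 1.13, 0.83 and 0.82, but without balancing they were 0.13, 0.34, 0.65 and 0.35. The first had only 22 filled entries in the rescue map, against 1245 at brat.

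All 16 boundaries that were shallower in rescue by 0.2 or more had a control depth under 0.5, as did 249 of all 739 boundaries. Among the same 396 boundaries as above, the 3 with the largest fall changed by less than 0.2 in size. They were X:22110001-22120000, with no annotated gene, at -0.20 when rounded, X:20420001-20430000, over mal, cactin and Pp4-19C among others, at -0.04, and 3L:2230001-2240000, over Oseg2, CG9018 and ACXD, at -0.04. The first was higher in rescue, by 0.28, without balancing. The window around the transcript start of brat that falls inside its boundary bin (RefSeq, dm6, 2L:19165617-19165916, plus strand) is shown because that boundary kept its value without balancing.
brat: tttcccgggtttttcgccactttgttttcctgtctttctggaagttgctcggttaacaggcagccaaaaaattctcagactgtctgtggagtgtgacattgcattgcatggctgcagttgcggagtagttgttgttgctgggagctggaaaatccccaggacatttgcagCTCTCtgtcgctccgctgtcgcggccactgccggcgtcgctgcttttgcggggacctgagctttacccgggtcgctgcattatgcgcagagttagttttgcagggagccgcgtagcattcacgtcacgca
It held GAGAG 1 time, on the opposite strand, and no CGATA or CAGGTA.

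**Figure D5:**
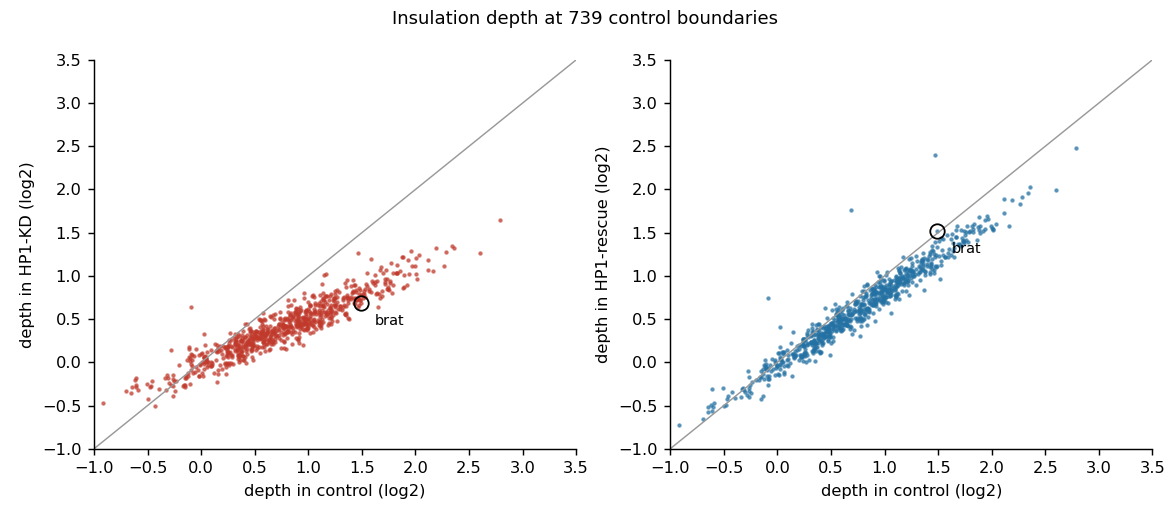
Insulation depth (log2) at 739 control boundaries in HP1-KD (left) and HP1-rescue (right) against control, with the line of equality and brat circled. The HP1-KD points lie flatter below the line, and the rescue points lie closer to it, with means of 0.405 and 0.622 against 0.766 in control.

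Compartments were read at 40 kb. Bins were ranked along each arm by the first eigenvector of the control map, and contact was compared among the 20% of bins at the inactive (B) end and the 20% at the active (A) end, for bins 500 kb or more apart, as a ratio to that given by distance. B/B contact was 1.62 in control, 1.31 in the knockdown and 1.63 in the rescue, 24.5% higher in rescue than in HP1-KD. Without balancing the values were 0.842, 0.710 and 0.806, a difference of 13.5%. With balancing, B/B contact was higher on 3R by 36.9%, on 2L by 35.9% and on 3L by 25.3%, and differed by 2.92% on X and -2.33% on 2R. On 2R the control and HP1-KD values were themselves close, at 1.06 and 1.02.

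A/B contact was 0.701, 0.794 and 0.719, lower in the rescue by 4.81 to 14.3% on all 5 arms, with 80.5% restored. A/A contact was 1.14, 1.12 and 1.07, so the rescue lay further from control than HP1-KD did, by -5.90% against -2.07%. Its difference of -3.91% between rescue and HP1-KD became 2.62% without balancing, so it has no settled direction. The direction of the ranking was set on each arm by gene density, so the A end is the gene-richer end by choice. The size of that correlation was 0.256 to 0.312 across bins, a loose match.

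Alignment of arms, the contact between loci on different arms that lie at the same distance from their pericentromeric borders to within 1 Mb over that of loci 5 Mb or more out of step, is a measure of the Rabl configuration. It was 2.58 in control, 2.20 in the knockdown and 2.49 in the rescue, 12.97% higher in rescue than in HP1-KD with 75.8% restored. All 10 pairs of arms were higher in rescue, from 3.74% for 3L with X to 22.3% for 2L with 3L. The pair of 2L with 3L had 3.21, 2.72 and 3.33, and that of 2R with 3R 2.53, 1.95 and 2.25.

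Contact between the terminal 500 kb of different arms differed little between HP1-KD and HP1-rescue with short contacts kept. The scaled contact was 2.77 in control, 2.04 in the knockdown and 2.10 in the rescue, a log2 ratio of rescue to HP1-KD of 0.04 with arms from 0.00 to 0.12, which is no clear difference. It was 4.52, 3.02 and 3.62 with short contacts left out, a ratio of 0.26. The 3 values rested on 139046, 77485 and 29382 contacts. At the tip of X the coverage of the maps themselves differed, since the first 100 kb had 4.86% of the contact ends per bin of the next 900 kb in control, 34.5% in the knockdown and 39.5% in the rescue, and without those 100 kb the telomere ratio of rescue to HP1-KD was 0.05.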

How the data were processed

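The authors deposited, per pooled group, 1 Hi-C map as a sparse matrix whose values are a balanced signal, made with HiC-Pro (2.11.1, per the submitters' processing notes) on dm6 from DpnII libraries, balanced by ICE at 10 kb and scaled to a sum of 49999985 to 50000036. Balancing divides each bin pair by a factor per bin, which removes differences in coverage between bins and can inflate thinly covered bins. These factors were solved from the deposited values, and whole contacts were recovered (100% of values under 20 contacts within 0.02 of a whole number). The name of the HP1-KD map does not settle which libraries it pools.

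Bins with values in the maps compared were used (13159 of 13256 on the 5 arms). Contacts per bin pair were scaled to 100000000 contacts, with contacts under 20 kb (same and next bin) kept or left out. Pericentromeric regions were 2L 22200001-23513712, 2R 1-4800000, 3L 23000001-28110227, 3R 1-4200000 and X 23000001-23542271. Insulation used a 100-kb diamond and a prominence of 0.2, and compartments used pairs 500 kb or more apart. Windows named were the 3 with the largest fall and the 3 with the largest rise for each measure and that of the HP1 gene, and boundaries the 5 with the largest rise and 3 with the largest fall among those with a control depth of 0.5 or more, arm 2R left aside. The members and lists were chosen with earlier results of these data known. Alternatives were the total, balancing, equal depth, leaving out each arm or sparse bins, and other window, diamond, region and distance settings. Computations used Python 3.11.15, numpy 2.4.6, scipy 1.17.1 and pandas 2.3.3, and were tested on simulated maps.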

Additional observations from a re-analysis of the deposited data

Results flagged for a closer look

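Sequence outside the 5 arms was used in no comparison and gave signal in the rescue map above the control level. Chromosome 4 held 1.05% of contact ends in HP1-rescue, against 1.03% in control and 1.19% in HP1-KD embryos. Chromosome Y held 0.153% in HP1-rescue, against 0.141% in control and 0.147% in HP1-KD. Mitochondrial DNA held 0.477% in HP1-rescue, against 0.248% in control and 0.582% in HP1-KD, so the rescue lay between the other 2 maps on chromosome 4 and on mitochondrial DNA and above both on Y.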

How the results depend on the processing

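No paired analysis was possible because each deposited map pools the libraries of its group, and for the same reason no library could be left out. Of 372 values under alternatives, 15 changed direction. Among contact, insulation and compartment values, 213 kept their direction and moved by less than the spread between arms or pairs of arms, and 44 moved further. Among percentages of windows or boundaries, 49 stayed within 1.5 times and 10 did not, and the share of windows lower in rescue for pericentromeric contact went from 77.6 to 52.6% with short contacts left out. Values of single windows or boundaries held least well, with 18 classed as the same, 21 as moved and 5 as reversed. Leaving out contacts under 20 kb turned the rescue difference from HP1-KD in the within-arm share to -1.03 percentage points, in the between-chromosome share to 0.794 and in the share between the arms of a chromosome to 0.240, and turned the log2 ratio at 100 to 200 kb to 0.076. It moved contact between pericentromeric regions to 0.38, their contact with other arms to -0.12 and telomere contact to 0.26. Scaling to contacts between chromosomes gave 0.12 for telomeres. Without balancing the within-arm share difference was 0.761, that of the between-chromosome share -0.415 (-0.139 without X), contact between pericentromeric regions 0.30, the insulation difference 0.192, the ratio at 50 to 100 kb -0.059, telomere contact -0.094, B/B contact 13.5%, A/A contact 2.62%, and the 3 windows with the highest pericentromeric ratios turned to -0.40, -0.15 and -0.27. The X boundary at 22110001 turned to 0.283 without balancing and to 0.283 with a 200-kb diamond. Telomere contact also turned to -0.012 without 2R, to -0.016 without the 10% of bins with the fewest entries and to -0.066 over the terminal 1 Mb, so its direction is not settled. Leaving out those sparse bins and the short contacts together, an alternative chosen after seeing the data, gave 0.43 between pericentromeric regions, -0.14 with other arms and 45.7% of windows lower in rescue. With pericentromeric regions set to the proximal 2 Mb, contact between them was 0.076, contact with other arms -0.092 and the alignment difference 7.03%. The exponent difference was -0.12 from 200 kb to 2 Mb, and the insulation difference 0.176 with a 200-kb diamond and 0.278 with a prominence of 0.5. Leaving out each arm in turn gave exponent differences of -0.196 to -0.188, pericentromeric contact of 0.110 to 0.184 and with other arms of -0.391 to -0.283, 72.7 to 83.3% of windows lower, insulation of 0.214 to 0.219, B/B contact of 18.6 to 28.6% and alignment of 11.1 to 16.0%. The inversion kept its direction under both of its alternatives. Thinning the maps to equal depth changed no direction among these.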

Other observations

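The 2L bin at 1580001-1590000 met the y locus with 288 contacts in HP1-rescue and 391 in H3K9M embryos, against 3 in control and 0 in HP1-KD. The w and fs(1)K10 bins, which lie apart on native X, met each other with 84 contacts in HP1-rescue, 87 in H3K9M, 19 in HP1-KD and 8 in control. The y and v bins met with 187 contacts in HP1-KD, 79 in HP1-rescue, 9 in control and 4 in H3K9M. Contacts of His3.3A, the gene of the histone that H3K9M embryos overexpress, with the w bin numbered 23 in H3K9M, 3 in HP1-rescue, 1 in control and 0 in HP1-KD. These loci were picked after their values had been seen.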
